A study of Rattus norvegicus with 6 samples.

Results

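The genes of oxidative phosphorylation were followed in kidneys of 2 rat strains, complex by complex. A gene belonged to the set if a probe set of the array carried its symbol alone and that symbol began with Nduf, Uqcr, Cox4 to Cox8 or Atp5, or was Sdha, Sdhb, Sdhc, Sdhd, Cyc1 or Cycs. The rule gave 87 of the 14217 genes that the array names singly, each read by the probe set with the highest mean signal. There were 34 genes of complex I, 4 of complex II, 8 of complex III, 16 of complex IV and 15 of complex V, with 6 assembly factors of complex I and 4 other members. The 4 others were the ATP synthase inhibitor Atp5if1, the pseudogene Cox6c-ps1, the supercomplex factor Cox7a2l and the Ndufa4 relative Ndufa4l2. Cytochrome c itself had no member, because its probe sets also carry the symbols of related genes.

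The RNA came from kidneys of adult male rats, 3 per strain and 1 array per rat. S stands for the parental inbred Dahl salt-sensitive rat (SS/Jr), in which blood pressure climbs with dietary salt. The congenic S.LEW(D1MCO4x1x3Bx1) is named for an S background that carries a Lewis segment of chromosome 1, and the series used it in mapping a hypertension locus to variants of Adamts16. Both groups share the S genome outside that segment, whose ends are not stated in the labels, and neither diet nor treatment is given there. Every array was scaled to a trimmed mean of 500.2, with median signals between 161.7 and 177.8. Markers of proximal tubule were present in all 6 kidneys (15 of 15 detected above the signal filter), while 0 of 6 muscle markers passed it.

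Oxidative phosphorylation passes electrons from NADH through complex I, and from succinate through complex II, to ubiquinone, then through complex III and cytochrome c to complex IV, where oxygen is reduced. Proton pumping by complexes I, III and IV drives complex V, the ATP synthase. The kidney cortex depends on it, because proximal tubule cells power sodium reabsorption largely with mitochondrial ATP. Most subunits are encoded in the nucleus, and a small number in mitochondrial DNA.

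No member differed between the strains at an adjusted p below 0.05 (limma, adjusted over all 15521 tested probe sets), against 0.0% of all tested probe sets. Of the 87 members, 80 passed the filter that kept probe sets with a mean log2 signal above the array's median. The smallest adjusted p-values were 0.208 for Atp5me, 0.222 for Ndufa7 and 0.226 for Ndufb11. At an unadjusted p below 0.05 there were 8 of the 80 members, 7 higher and 1 lower in congenic kidneys, beside 10.3% of all tested probe sets (4.72% higher and 5.61% lower). In 12 members (15.0%) the 3 congenic values did not overlap the 3 S values, 10 of them above and 2 below. Among all tested probe sets 16% did not overlap, 7.98% above and 7.99% below. The shares without regard to direction were thus near the background, and 12.5% of the tested members were above and 2.5% below. Among the 776 tested probe sets of strongest signal, 58 of them members, 18.2% were above and 4.64% below. An unadjusted p below 0.05 (limma) was found in 16.6% of these 776.

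The members' differences were small and leaned one way. The median log2 difference, congenic minus S, was 0.05 over the 80 tested members, and 58 of them (72.5%) were positive, beside a median of -0.00869 and 48.2% positive for all tested probe sets. Their median standard error was 0.08, against 0.14 for all tested probe sets. The 95% interval stayed within 1.5-fold in either direction for 74 of the 80. The exceptions were Ndufaf1, Ndufaf5, Ndufa7, Ndufb8, Atp5me and Cox6c-ps1. In whole-tissue RNA of this kind, fewer cells of a type and less RNA per cell cannot be told apart.

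The lean was shared with other strong signals on these arrays. Among the 776 tested probe sets with a mean signal of 5246 or more, of which 58 were members, the median difference was 0.06 and 71.5% were positive, while the 58 members had a median of 0.05. In the 3105 weakest tested probe sets the median was -0.07. After quantile normalisation, which gives all arrays one distribution of signals, 39 of the 80 members were positive with a median of -0.01, and with cyclic loess normalisation 37 were positive with a median of -0.02. With arrays centred on their medians 66 were positive with a median of 0.12, and the median of all tested probe sets moved to 0.06. With centring 62.6% of all tested probe sets were positive, beside 82.5% of the members. The members at an unadjusted p below 0.05 (limma) split into 4 higher and 2 lower after quantile normalisation, 3 and 2 with cyclic loess, and 17 and 0 after centring. The share of all tested probe sets at this level was not counted under these scalings, so these counts have no background beside them. The direction of the members as a set thus depended on the scaling.

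**Figure D1:**
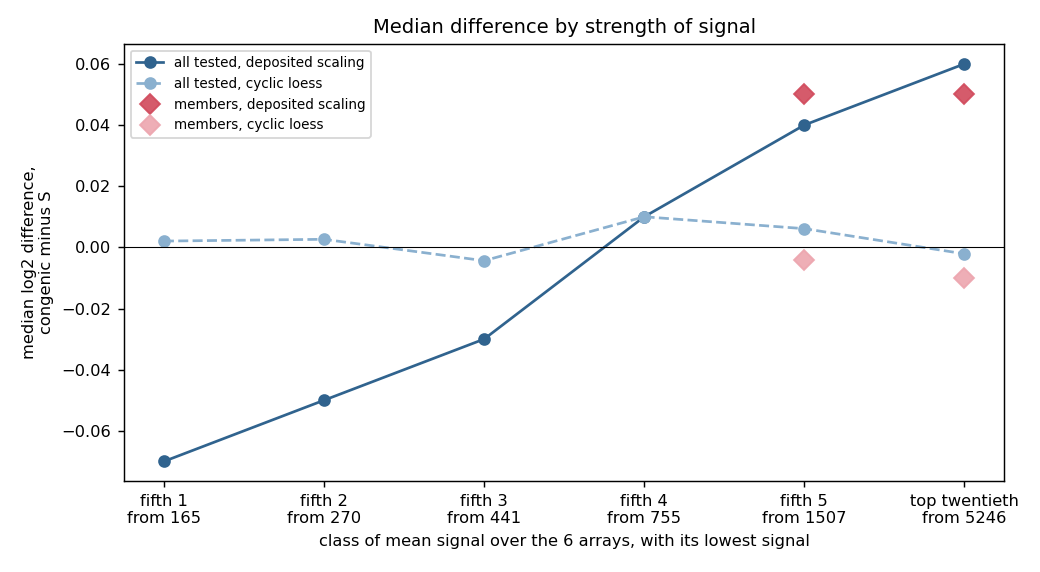
Median log2 difference, congenic minus S, by class of mean signal: all tested probe sets in 5 equal classes and in the top class of 776 (circles), with the members of the 2 strongest classes (diamonds), at the deposited scaling and with cyclic loess. At the deposited scaling the medians climb from -0.07 to 0.06 with the signal and the members sit at 0.05, while with cyclic loess both lie near 0.

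The 6 arrays did not separate by strain for these genes. Mean deviations from each member's own mean were -0.00339, -0.01 and -0.05 in S replicates 1 to 3, and -0.05, 0.09 and 0.03 in congenic replicates 1 to 3 (log2 units). Congenic replicate 1 thus lay level with the lowest S kidney, and congenic replicates 2 and 3 lay above all 3 S kidneys. In congenic replicate 2, 67 of the 80 tested members were above their own mean, and in congenic replicate 1 there were 28. Without congenic replicate 1 the median of the members was 0.09 with 63 positive, and without congenic replicate 2 it was 0.03 with 47 positive.

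**Figure D2:**
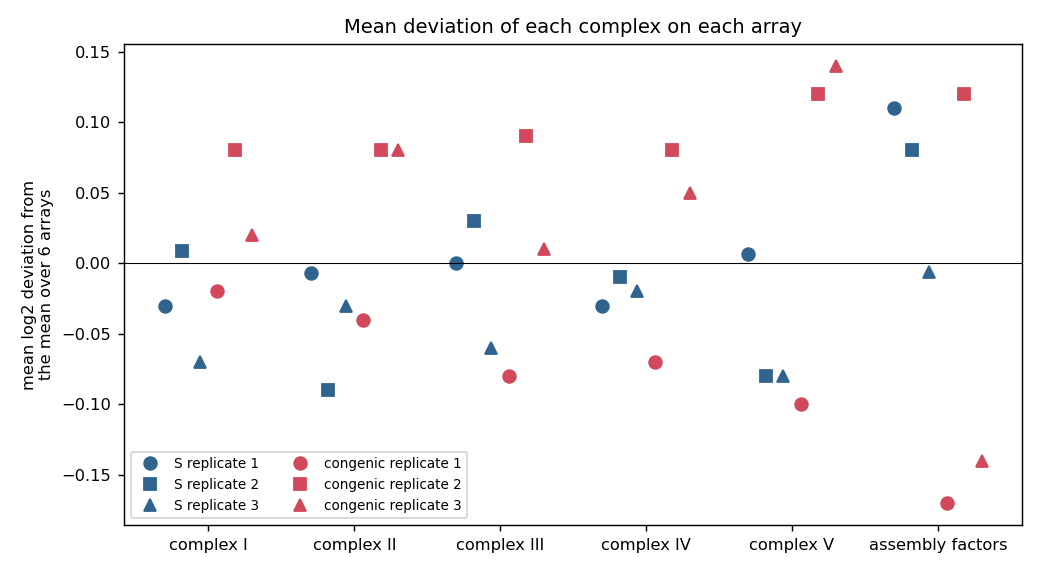
Mean log2 deviation of each group's tested members from their own 6-array mean, by array. Congenic replicate 2 was above 0 in all 5 complexes and congenic replicate 1 below 0 in all 5, so the congenic kidneys lay on both sides of 0.

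Complex I, the NADH dehydrogenase, had all 34 members tested. Positive differences were found in 26, with a median of 0.05 and a range from -0.23 to 0.46. Quantile normalisation gave 19 positive with a median of 0.01, and cyclic loess 18 with a median of 0.00311. Those at an unadjusted p below 0.05 (limma) were 3 higher and 1 lower, 11.8% of the 34, beside 10.3% of all tested probe sets. The 6 core subunits that carry the flavin and most iron-sulphur clusters (Ndufs1, Ndufs3, Ndufs7, Ndufs8, Ndufv1 and Ndufv2) had a median of 0.08, with 4 positive and none at an unadjusted p below 0.05. The 28 supernumerary subunits, which surround and stabilise the core, had a median of 0.05 with 22 positive.

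Ndufa7, a supernumerary subunit, read 3805, 3025 and 3593 in S kidneys and 3881, 5245 and 5335 in congenic kidneys. Congenic replicate 1 was just above the highest S value and the other 2 congenic kidneys well above. The log2 difference was 0.46 ± 0.12 (SE), a ratio of 1.38, with an adjusted p of 0.222 (limma) and an exact two-sided permutation p of 0.1, the smallest that 3 against 3 can give. A second probe set for Ndufa7 gave 0.16 ± 0.21. Ndufb11, a subunit of the membrane arm, read 8783, 8670 and 8257 in S and 9873, 10642 and 10973 in congenic kidneys. The lowest congenic kidney was above the highest S kidney, with means of 8570 ± 277 (SD, n = 3) in S and 10496 ± 564 (SD, n = 3) in congenic kidneys. The difference of 0.29 ± 0.08 had an adjusted p of 0.226 (limma). Leaving out any 1 array left Ndufb11 between 0.26 and 0.33 and Ndufa7 between 0.37 and 0.61.

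Ndufa13, also known as GRIM-19, read 4320, 4147 and 4032 in S and 4654, 4749 and 4615 in congenic kidneys. The groups were narrow and did not overlap, at a difference of 0.17 ± 0.07 (limma adjusted p = 0.472). Ndufb1 went the other way, with 4680, 5343 and 5863 in S and 4463, 4567 and 4459 in congenic kidneys. All its congenic values were below the lowest S value, and the S kidneys were the more variable group. The difference was -0.23 ± 0.09 (limma adjusted p = 0.39). Ndufs4, an accessory subunit in which mutations cause Leigh syndrome, had a difference of -0.17 ± 0.12 and Ndufa5 one of -0.12 ± 0.12, both with overlapping groups. Ndufa9 and Ndufc1 also had congenic values all above S, at 0.14 ± 0.08 and 0.08 ± 0.07. Ndufv3 was read by 2 tested probe sets, whose differences were 0.08 ± 0.08 and 0.45 ± 0.16, so the choice of probe set sets its value.

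**Figure D3:**
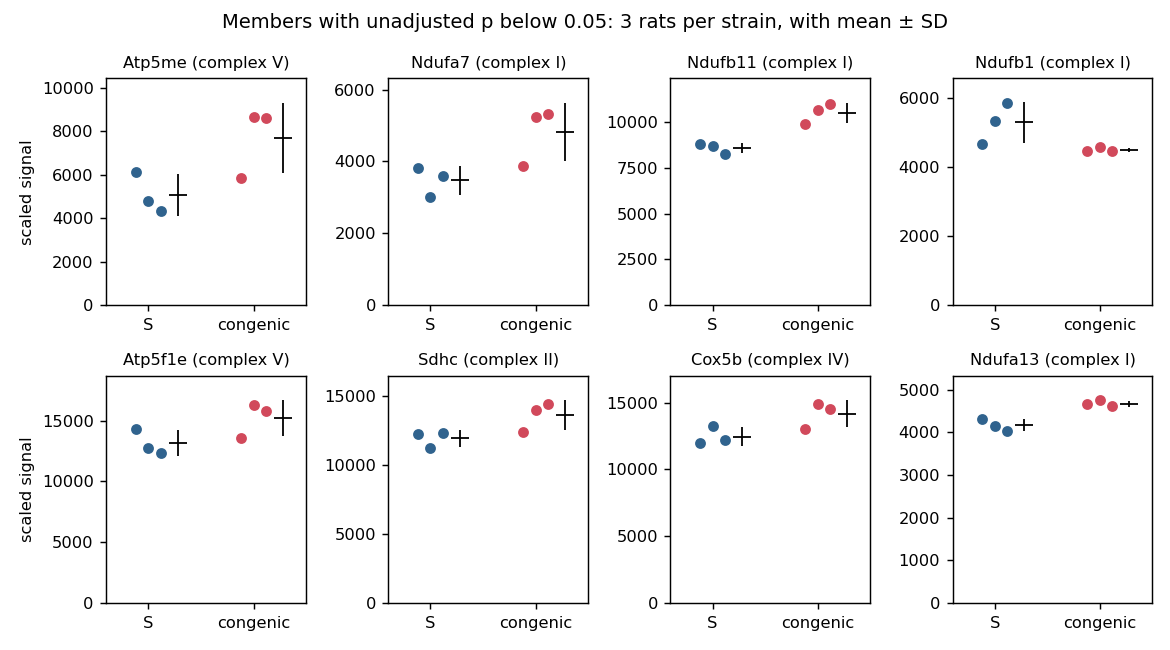
Scaled signal of the 8 members at an unadjusted p below 0.05 (limma), 1 point per rat, with mean ± SD over 3 rats per strain. For Ndufa7, Ndufb11, Ndufa13 and Sdhc the congenic points were all above S and for Ndufb1 all below, while Atp5me, Atp5f1e and Cox5b overlapped, with congenic replicate 1 the lowest congenic value in each.

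Complex II, succinate dehydrogenase, links the citric acid cycle to the chain and is wholly encoded in the nucleus. Its catalytic flavoprotein Sdha read 13798, 12689 and 13688 in S and 13741, 14410 and 13813 in congenic kidneys, a difference of 0.06 ± 0.07. Its iron-sulphur subunit Sdhb read 10723, 10321 and 10344 in S and 10682, 11239 and 11654 in congenic kidneys, a difference of 0.10 ± 0.07. In both genes the strains overlapped. The membrane anchor Sdhc read 12238, 11229 and 12344 in S and 12392, 14006 and 14414 in congenic kidneys. Congenic replicate 1 was only slightly above the highest S kidney, and the difference of 0.19 ± 0.08 had an adjusted p of 0.457 (limma). The other anchor, Sdhd, differed by -0.01 ± 0.07 at its main probe set and 0.09 ± 0.08 at its second. Of the 4, 3 were positive, as under quantile normalisation, and 2 were under cyclic loess. The 95% intervals of all 4 lay within 1.5-fold.

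Complex III, the cytochrome bc1 complex, had 8 tested members, none at an unadjusted p below 0.05, with a median of 0.00409. Cytochrome c1 (Cyc1), which hands electrons to cytochrome c, read 13665, 13090 and 13317 in S and 13265, 14687 and 12242 in congenic kidneys. The congenic kidneys spanned the S kidneys, and the difference was 0.000606 with a 95% interval from -0.17 to 0.17. The Rieske iron-sulphur protein Uqcrfs1 was the member of complex III with all congenic values below S, at 15955, 15112 and 15636 against 14025, 14291 and 14240. Its difference was -0.13 ± 0.07 (limma adjusted p = 0.539). Among the structural subunits, Uqcrc2 differed by 0.14 ± 0.11, Uqcrq by 0.14 ± 0.10, Uqcrc1 by 0.08 ± 0.08 and Uqcrh by -0.08 ± 0.09, with overlapping groups. At the deposited scaling 6 of the 8 were positive, and 3 were under quantile normalisation or cyclic loess. The median of the 8 was -0.05 with quantile normalisation and -0.07 with cyclic loess. All 8 intervals lay within 1.5-fold.

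Complex IV, cytochrome c oxidase, had 10 tested members of 16, with 7 positive, a median of 0.05 and overlapping strains for all 10. Under quantile normalisation and under cyclic loess 3 of the 10 were positive and the median was -0.03, so the direction of this complex turned with the scaling. Cox5b, which binds zinc on the matrix side, read 11955, 13259 and 12183 in S and 13024, 14927 and 14546 in congenic kidneys. Congenic replicate 1 lay inside the S range, and the difference was 0.18 ± 0.08 (limma adjusted p = 0.459). Cox7c differed by 0.16 ± 0.11, Cox6b1 by 0.11 ± 0.10, Cox6c by -0.02 ± 0.09 and Cox7b by -0.03 ± 0.09. Cox5a had the most negative value, -0.21 ± 0.14. A probe set that carries the symbol Cox5a together with LOC100361008, and so was no member, gave 0.02 ± 0.07.

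**Figure D4:**
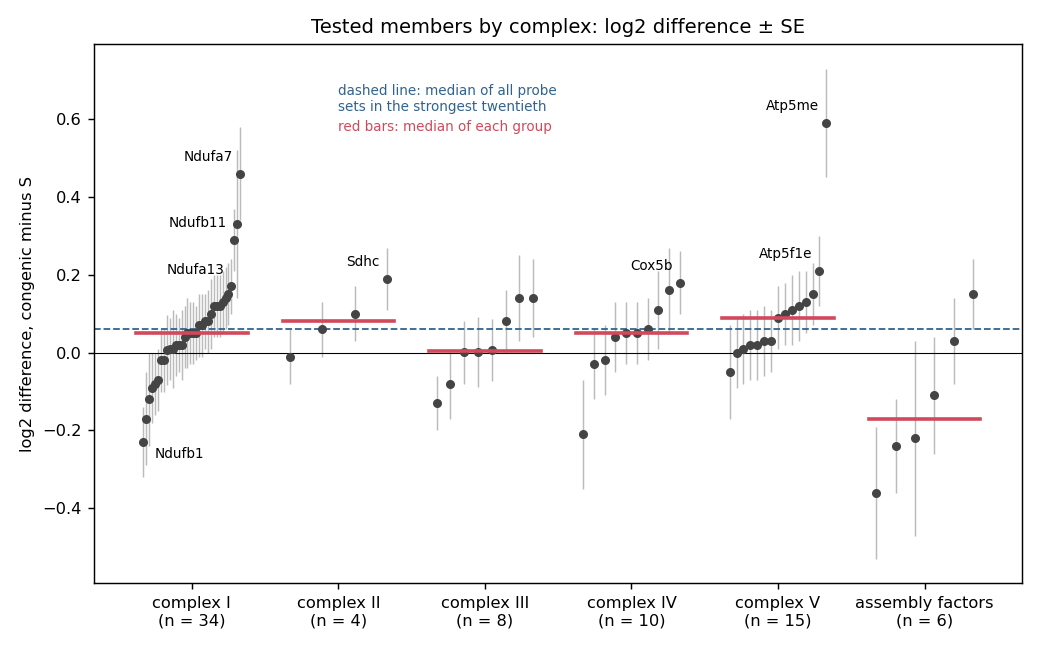
Log2 difference, congenic minus S, with its standard error for each tested member by complex, with the median of each group in red. Differences lie mostly within 0.2 of 0, and the widest are Atp5me at 0.59, Ndufa7 at 0.46 and Ndufb8 at 0.33 on one side and Ndufaf5 at -0.36 on the other. The dashed line, at 0.06, is the median of the 776 probe sets of strongest signal.

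Complex V had the largest median of the 5 complexes at the deposited scaling, 0.09, with 13 of 15 positive. An unadjusted p below 0.05 (limma) was found in 2 (13.3%), beside 10.3% of all tested probe sets. The count of positive members was 8 of 15 under both quantile normalisation and cyclic loess. The median was 0.02 with quantile normalisation, 0.01 with cyclic loess and 0.03 without congenic replicate 3. The F1 head, which makes ATP, contributed alpha, beta, gamma, delta and epsilon (Atp5f1a to Atp5f1e), with all 5 positive between 0.10 and 0.21. All 5 were positive under the other scalings too, between 0.02 and 0.14 with quantile normalisation and between 0.03 and 0.13 with cyclic loess. The arrays still overlapped for this part at the deposited scaling. The mean deviation of its 5 members was 0.03 in S replicate 1 and -0.01 in congenic replicate 1. Its epsilon subunit Atp5f1e read 14342, 12709 and 12364 in S and 13540, 16280 and 15770 in congenic kidneys. Congenic replicate 1 again lay inside the S range, and the difference was 0.21 ± 0.09 (limma adjusted p = 0.451). The gamma subunit Atp5f1c, the turning shaft, differed by 0.15 ± 0.08. The alpha and delta subunits Atp5f1a and Atp5f1d had congenic values all above S, at 0.13 ± 0.08 and 0.10 ± 0.08, and the catalytic beta subunit Atp5f1b overlapped at 0.12 ± 0.09. The 4 peripheral stalk subunits, which hold the head still, had a median of 0.02, which was -0.03 under quantile normalisation and -0.05 under cyclic loess.

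The 6 membrane subunits of complex V had a median of 0.02 and held the member with the largest difference. Atp5me, the small subunit e that takes part in pairing ATP synthases, read 6145, 4780 and 4313 in S and 5840, 8640 and 8629 in congenic kidneys. Congenic replicates 2 and 3 were well above every S kidney, but congenic replicate 1 lay below S replicate 1, so the strains overlapped. The difference was 0.59 ± 0.14, a ratio of 1.51, with an adjusted p of 0.208 (limma) and an exact two-sided permutation p of 0.2. Without S replicate 1 it was 0.74 with an adjusted p of 0.0476 (limma), and without congenic replicate 1 it was 0.78 with an adjusted p of 0.0376. Each of these fits left out 1 of the 2 arrays that made the strains overlap. Of all 15521 tested probe sets, 41 passed without S replicate 1 and 6 without congenic replicate 1. The second probe set for Atp5me did not pass the filter. The c ring subunit Atp5mc3 differed by 0.03 ± 0.09, Atp5mf by -0.00156 and Atp5mk by -0.05 ± 0.12.

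The 6 complex I assembly factors, which help build the complex but leave it when finished, had a negative median of -0.17, with 2 positive and none at an unadjusted p below 0.05. The median was -0.12 after quantile normalisation, -0.11 with cyclic loess and -0.06 without congenic replicate 1. Ndufaf5, a hydroxylase of Ndufs7, read 576, 531 and 446 in S and 356, 508 and 357 in congenic kidneys, a difference of -0.36 ± 0.17 (limma adjusted p = 0.488). Congenic replicate 2 was inside the S range and the other 2 congenic kidneys below it. Ndufaf4 read 1275, 1784 and 1568 in S and 1226, 1339 and 1328 in congenic kidneys, a difference of -0.24 ± 0.12 (limma adjusted p = 0.507). Ndufaf1 differed by -0.22 ± 0.25. Ndufaf3 was the exception, with 1355, 1298 and 1427 in S and 1466, 1561 and 1500 in congenic kidneys, a difference of 0.15 ± 0.09 with no overlap. Ndufaf8 differed by 0.03 ± 0.11. All 6 lay outside the strongest signal class, which began at 1507, and the medians of all tested probe sets in the 4 weaker classes ran from -0.07 to 0.01.

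Of the other members, the inhibitor Atp5if1, which blocks ATP hydrolysis by complex V, read 3370, 3397 and 3161 in S and 3505, 3941 and 3579 in congenic kidneys. All congenic values were above S, at 0.15 ± 0.08 (limma adjusted p = 0.545). Cox7a2l differed by -0.04 ± 0.08 and Cox6c-ps1 by -0.13 ± 0.24.

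The 7 members below the signal filter were Cox4i2, Cox6a2, Cox6b2, Cox7a1, Cox7b2, Cox8b and Ndufa4l2, most of them isoforms known from lung, heart and skeletal muscle, brown fat or testis. Their common partners passed: Cox4i1 differed by 0.05 ± 0.08, Cox6a1 by 0.06 ± 0.08 and Cox8a by 0.04 ± 0.09. Cox4i2 read 139, 127 and 79.4 in S and 137, 36.3 and 123 in congenic kidneys. Cox6a2 read from 3.31 to 32.9 and Cox6b2 from 41.9 to 125 across the 6 arrays. Cox7b2 read from 3.72 to 77.5 and Ndufa4l2 from 67.7 to 196, each with overlapping strains.

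Cox8b and Cox7a1, the isoforms of muscle and brown fat, varied more between rats than between strains. Cox8b read 69.7, 133 and 25.8 in S replicates 1 to 3 and 187, 13.4 and 36.5 in congenic replicates 1 to 3. Cox7a1 read 65.4, 110 and 64.8 in S and 123, 27.0 and 112 in congenic kidneys. Both were highest in congenic replicate 1. The brown fat uncoupling protein Ucp1 read 451, 420 and 186 in S and 751, 138 and 259 in congenic kidneys. The fatty acid carrier Fabp4, also of fat, read 796, 1136 and 397 in S and 1335, 498 and 444 in congenic kidneys. Congenic replicate 1 was highest for both markers, and S replicate 3 and congenic replicates 2 and 3 were the low arrays. Over the 4 genes listed as brown fat markers (Ucp1, Cidea, Adipoq and Fabp4) the summed signal ran from 891 to 2317 in S and from 1069 to 2950 in congenic kidneys. Of the 4, 3 were tested. Fabp4, which is not particular to brown fat, had the highest signal of the 4 on every array. Cox8a, the general isoform, had its lowest signals in the 2 arrays where Cox8b was highest, 23424 in S replicate 2 and 25353 in congenic replicate 1. The same 2 arrays were lowest for the complex V subunit Atp5mc3, at 21405 and 23484, so this order was not particular to Cox8a. The part of brown fat cells in these values was not tested.

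**Figure D5:**
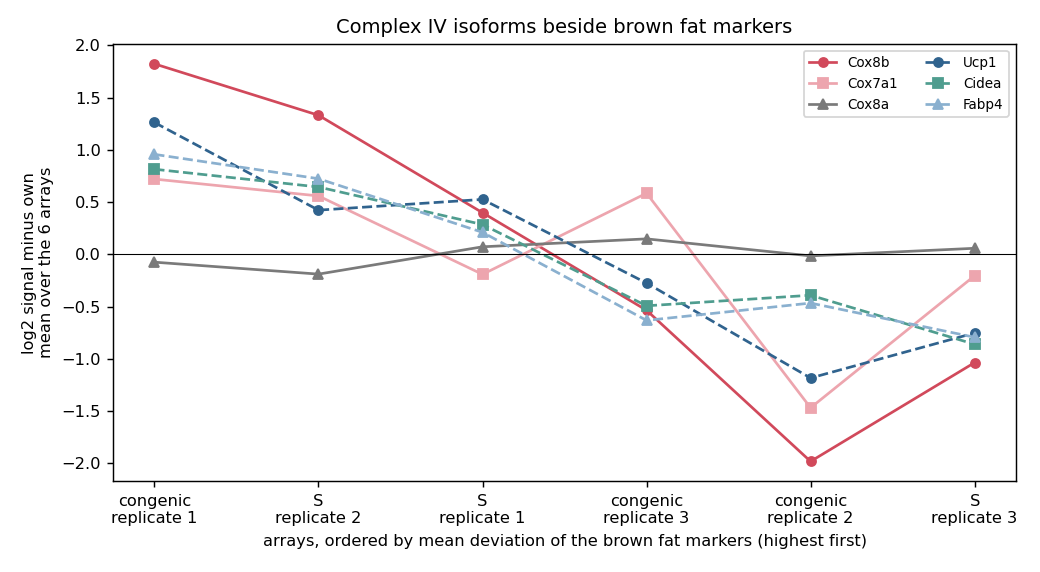
Log2 signal of Cox8b, Cox7a1 and Cox8a and of the markers Ucp1, Cidea and Fabp4 from the brown fat list, each minus its own mean over the 6 arrays, with arrays ordered by the markers' mean. Cox8b and the markers are above their own means in congenic replicate 1 and S replicates 1 and 2 and below them in the other arrays, and Cox8a stays near 0. Cox7a1 does not follow the markers in every array, being below its own mean in S replicate 1 and above it in congenic replicate 3.

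Some promoters of these genes hold known binding motifs of mitochondrial gene regulators. As examples, 4 windows with a match are shown, all of members described above. Others described above, among them Ndufb11, Ndufb1 and Sdhc, have no match in this window. Each is the 250 bases before the annotated start, 5′ to 3′ on the gene's strand, from RefSeq on GRCr8. Capitals mark matches, on either strand, to cores of NRF1 (GCATGCG), ETS factors such as GABPA (CCGGAAG), ERR (AAGGTCA) and YY1 (AAGATGG), or to a TATA box (TATAAA). Atp5me, the member with the largest difference, is on the + strand at chr14:1464610-1464859. Sdhb, of the wholly nuclear complex II, is on the + strand at chr5:158547684-158547933. Ndufaf4, an assembly factor, is on the + strand at chr5:43401545-43401794. Cox8b, the isoform near background, is on the - strand at chr1:205408274-205408523.
Atp5me: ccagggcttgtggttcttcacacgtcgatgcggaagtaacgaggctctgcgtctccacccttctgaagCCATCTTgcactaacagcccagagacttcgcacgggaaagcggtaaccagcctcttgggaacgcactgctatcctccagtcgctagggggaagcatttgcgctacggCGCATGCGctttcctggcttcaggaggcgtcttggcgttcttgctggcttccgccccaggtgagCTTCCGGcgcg
Sdhb: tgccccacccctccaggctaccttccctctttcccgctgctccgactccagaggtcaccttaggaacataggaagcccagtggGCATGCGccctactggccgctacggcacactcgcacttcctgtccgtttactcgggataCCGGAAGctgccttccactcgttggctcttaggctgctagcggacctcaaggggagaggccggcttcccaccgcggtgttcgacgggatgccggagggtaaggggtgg
Ndufaf4: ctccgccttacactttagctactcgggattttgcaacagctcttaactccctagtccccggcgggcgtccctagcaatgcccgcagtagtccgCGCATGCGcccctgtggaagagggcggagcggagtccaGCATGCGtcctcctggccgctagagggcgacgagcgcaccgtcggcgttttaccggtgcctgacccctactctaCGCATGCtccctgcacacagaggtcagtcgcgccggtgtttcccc
Cox8b: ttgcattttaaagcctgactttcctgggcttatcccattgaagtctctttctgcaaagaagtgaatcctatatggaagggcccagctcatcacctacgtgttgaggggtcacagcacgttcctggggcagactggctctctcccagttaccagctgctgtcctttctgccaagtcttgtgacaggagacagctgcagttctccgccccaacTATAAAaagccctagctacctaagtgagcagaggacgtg

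The Atp5me window carries the NRF1 core on both strands in one overlapping palindrome, with an ETS and a YY1 core. That of Sdhb has an NRF1 and an ETS core, and that of Ndufaf4 holds only NRF1 cores. In Cox8b the match is a TATA box. A matched letter string is a description and not a shown binding site.

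Promoters of 78 members were found by Entrez gene number and searched from 250 bases before to 50 bases after the start. The NRF1 core was present in 14.1% of them (11) beside 3.54% of all 27457 promoters of the table, and the ETS core in 28.2% (22) beside 9.22%. The ERR core was present in 14.1% beside 4.37%, reaching 5 of 14 in complex V, and the YY1 core in 25.6% beside 7.3%. The TATA box was present in 10.3% beside 14.3%. Median GC content was 56.0% in members and 52.3% in all promoters. The differences between strains did not sort by motif: the median log2 difference was 0.05 with and without the NRF1, ETS or ERR core, 0.08 with and 0.05 without the YY1 core, and 0.01 with and 0.05 without a TATA box.

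Of 18 tested regulators of mitochondrial biogenesis, 7 were positive, none passed the adjusted test and the median was -0.03. The coactivator Ppargc1a differed by -0.04 ± 0.10, Nrf1 by -0.06 ± 0.22, the mitochondrial DNA packaging factor Tfam by -0.05 ± 0.11, Gabpa by -0.24 ± 0.12 and the nuclear receptor Esrrg by -0.23 ± 0.09 (limma adjusted p = 0.402). Among the 7 positive were Tfb1m at 0.13 ± 0.13 and Tfb2m at 0.13 ± 0.12. Of 34 tested genes that import or assemble the complexes, 18 were positive with a median of 0.04 and none passed the adjusted test. At an unadjusted p below 0.05 were Coa5, a complex IV factor (0.21 ± 0.07), Ecsit (0.27 ± 0.11), Cox15, of haem a synthesis (0.21 ± 0.10), and Nubpl, a complex I iron-sulphur factor (-0.59 ± 0.27). That was 3 higher and 1 lower of the 34, where 10.3% of all tested probe sets reached this level (limma). Of 16 tested carriers and electron entry genes, 10 were positive with a median of 0.08 and none passed the adjusted test. The electron transfer flavoprotein subunit Etfb differed by 0.18 ± 0.08 and its dehydrogenase Etfdh by -0.24 ± 0.10.

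The array symbols COX1 and COX2 were taken here to name the catalytic subunits of complex IV that mitochondrial DNA encodes, and the RefSeq gene table used does not list them. COX1 read 49185, 36822 and 45740 in S and 41954, 46963 and 52971 in congenic kidneys, a difference of 0.11 ± 0.11. COX2 read 52361, 40054 and 51779 in S and 46448, 53897 and 59023 in congenic kidneys, a difference of 0.15 ± 0.11. For both, S replicate 2 was lowest and congenic replicate 3 highest, and the strains overlapped.

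No cell type marker passed the adjusted test (limma), and some differences were as large as the largest of a member. The 15 proximal tubule markers had 12 positive, a median of 0.10 and a summed signal from 216910 to 245458 in S and from 242134 to 262791 in congenic kidneys. Their median was 0.03 with quantile normalisation and 0.02 with cyclic loess. The 9 tested markers of the loop of Henle and distal tubule had a median of -0.14 with 2 positive, and -0.18 under both quantile normalisation and cyclic loess. The 12 of collecting duct and medulla had a median of 0.01, the 4 tested of podocytes 0.05, the 6 tested of endothelium and smooth muscle 0.01 and the 4 tested of immune cells 0.11. Within these lists, von Willebrand factor (Vwf) of endothelium differed by 0.63 ± 0.21, the macrophage protein Cd68 by 0.63 ± 0.23 and smooth muscle actin (Acta2) by -0.36 ± 0.13. Other markers of the same lists did not follow them. Kdr of endothelium differed by 0.00215 ± 0.10, the immune cell marker Ptprc by -0.35 ± 0.22 and Tagln of smooth muscle by 0.03 ± 0.13. Cd68 had a mean of 180 in S, near the lowest tested signal of 165. The 3 erythrocyte markers had a median of -0.42 with none positive, and -0.50 under both other scalings. Beta globin (Hbb) differed by -0.42 ± 0.16 and the haem synthesis enzyme Alas2 by -0.55 ± 0.21. The third, Slc4a1, which also stands in the collecting duct list, differed by -0.08 ± 0.13. The strains overlapped for all 3. The part of these cell types in the members' values was not tested.

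In the reference annotation 16 members lie on chromosome 1, which carries the Lewis segment, and 12 of them were tested. Of those, 9 were positive and none reached an unadjusted p below 0.05, while 49 of the other 68 tested members were positive. Ndufs6 is the member nearest to Adamts16, with 3 genes between, and Sdha has 23 between. Ndufs6, a complex I subunit that binds zinc, read 8477, 7495 and 7989 in S and 8727, 8344 and 8116 in congenic kidneys. The strains overlapped, at a difference of 0.07 ± 0.08 (limma adjusted p = 0.771). Whether either gene lies inside the Lewis segment cannot be read from the labels.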

How the data were processed

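Kidney RNA of 3 S and 3 congenic rats was hybridised to 1 Affymetrix array each. The deposited values are linear signal intensities per probe set, which the authors made with GCOS 1.4, per the submitters' processing notes. A trimmed mean of 500.2 on every array was checked here. RNA depth has no counterpart on arrays, so precision is limited by 3 arrays per strain.

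The 57 control probe sets were removed. Signals below the 10th percentile of the table (12.3) were set to it, log2 was taken, and probe sets with a mean above the median were tested (limma 3.58.1, lmFit and eBayes with a variance trend, R 4.3.3), with Benjamini-Hochberg adjustment over 15521. The fit was tested on simulated data. Of 31042 probe sets, 20826 carried 1 symbol in GEO's platform annotation, 436 several and 9780 none. The labels name 6 different animals. Signals are not compared between probe sets.

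The members, complexes and gene lists were chosen with earlier results of these data known. Members named were those with the smallest unadjusted p-values per group and direction (up to 3), all of complex II and the other members, and the complex IV isoform pairs. Ndufa9, Ndufc1, Ndufv3, Ndufs6, Cyc1, Atp5f1a, Atp5f1b, Atp5f1d and the single genes of other lists were named after their values were seen. The names COX1 and COX2 were matched after the data were seen. The division of complexes I and V into parts was not among the planned groups. In all, 16 alternatives were run, which changed the floor, filter, scaling, variance model, title block, probe set rule or 1 left-out array.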

Additional observations from a re-analysis of the deposited data

How the results depend on the processing

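No member passed the adjusted p of 0.05 (limma) under the 10 alternatives that kept all 6 arrays. Leaving out 1 array gave from 0 to 1 such members. The 1 was Atp5me, without S replicate 1 and without congenic replicate 1. Of all 15521 tested probe sets, 41 and 6 passed in these fits, in that order. The 8 members at an unadjusted p below 0.05 became 17 with arrays centred on the median, 5 after cyclic loess, 3 without the variance trend and 5 with the title number as a block, and from 3 to 12 with 1 array left out. The lowest of these, 3, came without congenic replicate 3, and S replicate 3 or congenic replicate 2 left out gave 5. The share of all tested probe sets at this level was not counted under the alternatives. The 58 positive members became 37 after cyclic loess, and from 47 to 63 with 1 array left out. The median of the members was -0.01 after quantile normalisation, 0.12 with centring and -0.02 after cyclic loess, and that of complex I was 0.12 with centring and 0.00311 after cyclic loess. Complex II gave 0.02 after quantile normalisation, 0.15 with centring and 0.0097 after cyclic loess, and complex IV -0.03, 0.12 and -0.03 in the same order. The medians of complexes III and V moved by less than the spread between replicates. Another floor, a pseudocount, no filter, array weights and the mean of a gene's probe sets moved no count or median past these bounds.

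No paired analysis was possible because the labels give the strains no shared replicate numbers. The numbers that open the array titles (4, 13 and 14 for S, 7, 9 and 15 for congenic) were split at 10 as a block, and their meaning is not stated.

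Of 38 named members tested, 22 kept their sign under all 16 alternatives, and Cox6c-ps1 kept it under the 14 in which it passed the filter. After quantile normalisation and cyclic loess the differences were -0.05 and -0.06 for Atp5mc3, -0.03 and -0.04 for Cox4i1, -0.0078 and -0.01 for Cox6a1, and -0.05 and -0.05 for Cox8a, and Sdha was -0.00991 after cyclic loess. With centring Atp5mf was 0.07, Atp5mk 0.02, Cox6c 0.05, Cox7a2l 0.03, Cox7b 0.04 and Sdhd 0.06. Sdhd was 0.04 as the mean of its probe sets, and Atp5mf was 0.00441 with array weights. With the title block Atp5mf was 0.03, Atp5mk 0.04, Cox7b 0.00278 and Ndufaf8 -0.00522. With 1 array left out the sign changed within the ranges -0.05 to 0.10 for Atp5mc3, -0.07 to 0.12 for Atp5mf, -0.15 to 0.11 for Atp5mk, -0.02 to 0.19 for Cox6b1, -0.07 to 0.08 for Cox6c, -0.07 to 0.00308 for Cox7a2l, -0.10 to 0.03 for Cox7b, -0.05 to 0.09 for Cox8a, -0.20 to 0.01 for Ndufa5, -0.03 to 0.07 for Ndufaf8, -0.04 to 0.03 for Sdhd and -0.14 to 0.00687 for Uqcrh. The cause of these changes was not tested.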

Other observations

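Beside the members, 9 probe sets carry the symbol of a member-type gene together with that of a close relative. The one for Atp5mc2, a c ring subunit of complex V, listed with Atp5mc2l1, read 7428 ± 1855 (SD, n = 3) in S and 9797 ± 376 (SD, n = 3) in congenic kidneys, a log2 difference of 0.43 ± 0.13 (SE). That for Atp5mc1, another c ring gene, gave 0.05 ± 0.08. The 2 probe sets for cytochrome c, listed with Cycs-ps9 and Cycsl1, gave 0.05 ± 0.09 and 0.04 ± 0.09. Uqcrb of complex III gave -0.05 ± 0.10, Cox7a2 of complex IV -0.00973 ± 0.10, and Ndufs5 and Ndufa10 of complex I -0.02 ± 0.07 and 0.09 ± 0.09. These probe sets can read either gene of the pair.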
